A study of Mus musculus with 8 samples.

Results

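The set described here holds 35 mouse genes of the interferon response and of nucleic acid sensing, chosen by name and grouped by role into 4 GTPases of the Irg family, 5 transcription factors, 13 effectors, 6 sensors and their partners, 4 genes of antigen processing and 3 receptors. They were read from an RNA-seq count table of 27052 RefSeq records, in which each gene was represented by the record with the highest mean count. Of the 35 genes, 32 passed the filter on low counts and were tested, among 16235 tested records. The question was whether the loss of PIWI proteins raised these genes in induced pluripotent stem cells (iPSCs), and whether it did so within each series of clones.

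Each of the 8 libraries came from 1 iPSC clone. The triple knockout (TKO) clones 35, 37, 47 and 48 were made from Miwi-/- Mili-/- Miwi2-/- mouse embryonic fibroblasts (MEFs) and so lacked all 3 mouse PIWI genes, and the control (Ctrl) clones 33, 34, 41 and 43 came from littermate MEFs, which the methods of the study call triple heterozygous and its legends wild type or heterozygous. Both genotypes carried the Oct4-GFP reporter on a mixed C57BL/6-s129 background, were reprogrammed with retroviruses for OCT4, SOX2, KLF4 and c-MYC, were picked onto mitomycin C-inactivated MEF feeders, were grown in serum with LIF, and were sequenced at fewer than 10 passages. By their numbers, 2 clones of each genotype belong to a thirties and 2 to a forties series. Neither the meaning of the numbers nor the embryo behind each clone is given in the labels, so the p-values below measure the spread between clones, and clones of a series may share an embryo.

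PIWI proteins bind piRNAs and repress transposable elements in the germ line. Double-stranded RNA, which such elements can produce, is recognized in the cytoplasm by RIG-I (Ddx58) and MDA5 (Ifih1), which signal through the adaptor MAVS to IRF3 and IRF7 and so to the interferon genes. Secreted type I interferon binds the receptor of IFNAR1 and IFNAR2, and a complex that holds STAT2 and IRF9 then enters the nucleus and binds the interferon-stimulated response element (ISRE) in front of the target genes. Pluripotent stem cells are known for a weak response to double-stranded RNA and to interferon, while fibroblasts, such as feeder cells, respond strongly.

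Promoters of several genes that the comparisons turn on hold letters of this element, and the stretches around them are shown so that the letters can be set beside the measured values. RefSeq promoters (GRCm38.p6) of 300 bases, 250 before and 50 after the start, were found for 33 of the 35 genes and searched on both strands for the core of the ISRE, which reads GAAA, any 2 bases (NN) and GAAA again, so that matches can overlap. The motif was present in 16 of these 33 genes, while 3.99% of all 27025 genes with a promoter in the table held it. In the stretches below, written in the direction of transcription, capitals mark the matches, which read TTTC, NN and TTTC where the motif lies on the other strand.
Isg15 (chr4:156200850-156200921, minus strand): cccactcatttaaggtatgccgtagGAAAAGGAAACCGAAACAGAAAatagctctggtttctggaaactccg
Ifit1 (chr19:34640760-34640838, plus strand): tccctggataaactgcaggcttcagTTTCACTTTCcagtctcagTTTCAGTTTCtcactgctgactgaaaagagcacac
Ifit3 (chr19:34583348-34583441, plus strand): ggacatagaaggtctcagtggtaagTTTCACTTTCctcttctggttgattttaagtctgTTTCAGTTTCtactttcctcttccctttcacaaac
Irgm1 (chr11:48871421-48871475, minus strand): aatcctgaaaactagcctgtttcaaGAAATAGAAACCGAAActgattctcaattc
Gbp2 (chr3:142620579-142620638, plus strand): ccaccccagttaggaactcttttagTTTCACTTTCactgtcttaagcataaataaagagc
B2m (chr2:122147523-122147582, plus strand): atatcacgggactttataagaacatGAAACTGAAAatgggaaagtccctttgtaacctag
Stat2 (chr10:128270251-128270310, plus strand): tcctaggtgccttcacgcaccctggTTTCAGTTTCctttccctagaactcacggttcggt
Bst2 (chr8:71537562-71537627, minus strand): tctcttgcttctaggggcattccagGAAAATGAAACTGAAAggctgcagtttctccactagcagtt
Igtp (chr11:58199497-58199555, plus strand): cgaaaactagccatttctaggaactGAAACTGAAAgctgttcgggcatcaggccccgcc
The first 6 of these genes were lower in the TKO clones of the thirties series, and Stat2 was higher there. Bst2 and Igtp carry the same letters and did not pass the test in any comparison. A match of letters is a description of the window and not evidence of binding.

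Library totals ranged from 24593995 to 52457455 reads in TKO clones and from 8983203 to 24688324 in Ctrl clones, with the deepest libraries in the TKO clones and the shallowest in the Ctrl clones of the thirties series. Counts were divided by a size factor per library, from 0.9983 to 2.07 in TKO and from 0.369 to 0.9815 in Ctrl clones, to give normalized read counts. No replicate pair was so alike that it could be 1 library deposited again. The Miwi record, most of whose coding sequence the mutant allele lacks, had 2.41 to 4.53 normalized reads in TKO and 8.13 to 28.8 in Ctrl clones (log2 change -2.32 with the series as a term, adjusted p = 0.0227 from edgeR). It passed in the thirties clones (-2.57, adjusted p = 0.0241), but not over all clones (-2.22, adjusted p = 0.116) or in the forties clones (-1.99, adjusted p = 0.148). Its counts are small, with 3 reads in Ctrl 33 before scaling. The Mili and Miwi2 records include exons that those alleles keep, so their counts do not check the genotype, and the Mili record was higher in TKO (3.10 over all clones, adjusted p = 0.00165). Pluripotency markers were abundant in all 8 clones (summed normalized count of 7 genes from 112937 to 130242 in TKO and from 91291 to 139681 in Ctrl), with Esrrb near 0 throughout. Among them Pou5f1 (OCT4) was lower in TKO, from 15866 to 19185 normalized reads against 24310 to 28971 in Ctrl clones (log2 change -0.61 over all clones, adjusted p = 0.038, and -0.79 in the thirties clones, adjusted p = 0.00267, edgeR).

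The genes of the set were mostly at low or middle levels. Per kilobase of record, the median of the 32 tested members over all clones was 35.97 normalized reads, against 95.56 for all tested records. B2m, the light chain of MHC class I, was the highest at 1839 reads per kb, followed by Bst2 (tetherin, which holds budding virus at the membrane) at 1252, Mavs at 500.5 and Stat2 at 316. The lowest tested members were Irf9 at 1.79 and Adar at 2.24 reads per kb.

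The remaining 3 members could not be tested. Iigp1, an Irg GTPase, had 0 reads in every library, which allows up to 3 reads per library. Ifih1, which encodes MDA5, had 0 to 3 reads, and Irf1 had 1 to 8. All 3, together with Irf9, Samhd1, Adar, Tap1 and Ifnar2, have more than 1 RefSeq record in the table, whereas the 27 members with a single record were all tested. How reads that match several transcripts were counted is not stated in the sources used here, so a low value of these 8 genes may understate their level, and the same holds for genes with near-identical copies, such as Ifit3, Oas1a, Gbp2, Gbp3, Irgm2 and Igtp.

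**Figure D1:**
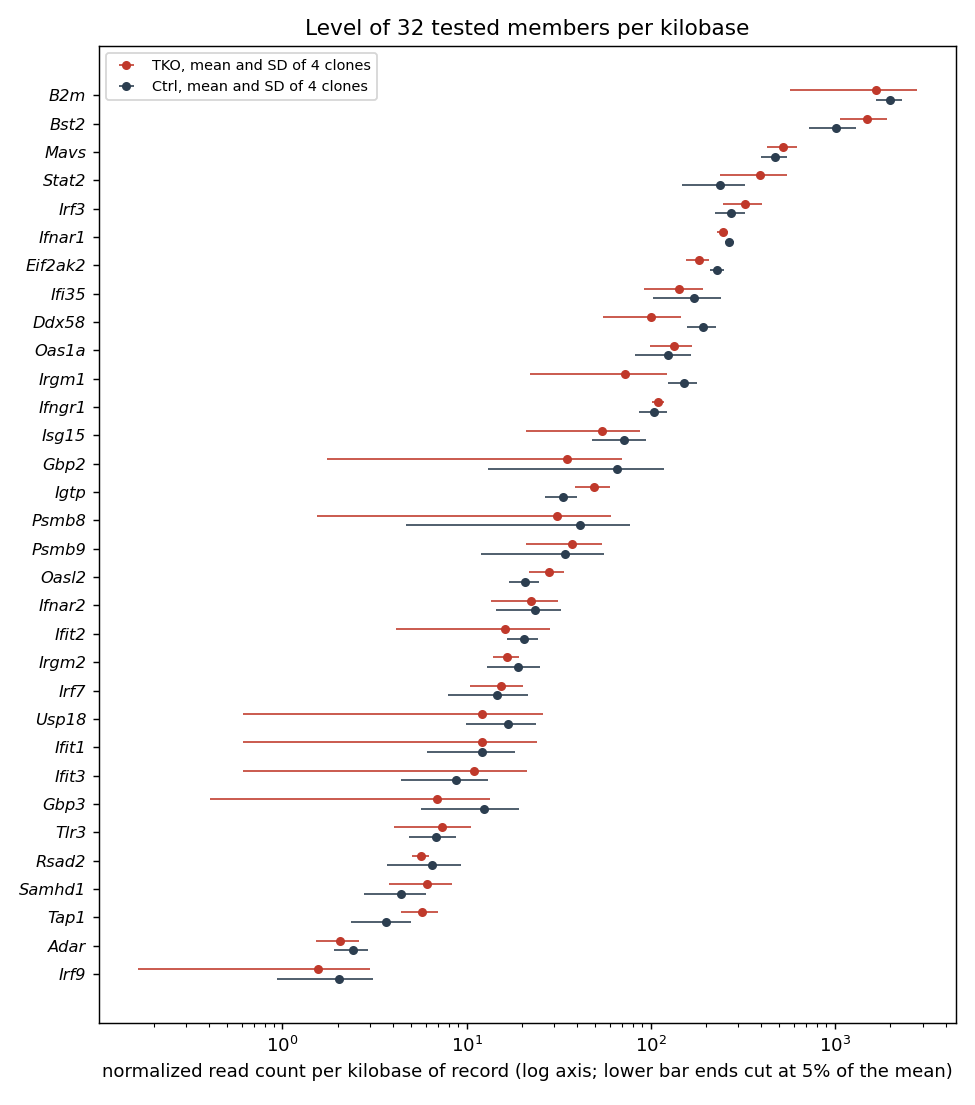
Normalized read counts per kilobase of record (log axis) of the 32 tested members, with the mean and SD of 4 TKO clones above that of 4 Ctrl clones for each gene. Levels run from 1.79 reads per kb for Irf9 to 1839 for B2m, and the SDs of the genotypes overlap for most genes.

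With all 8 clones compared at once, PIWI loss was not accompanied by a change in any member that passed the test. The number of members with an adjusted p under 0.05 was 0 higher and 0 lower in edgeR's quasi-likelihood test, and also in DESeq2 and in limma-voom, while 0.240% of all records passed in edgeR (0.0862% higher and 0.154% lower). With no adjustment, p was under 0.05 for 2 members that were higher and 3 that were lower, and for 2405 of all 16235 records. The median log2 change (TKO over Ctrl, as fitted) was -0.11 over the members and -0.01 over all records, with 15 members above 0 and 17 below. The lowest adjusted p was 0.237, for Ddx58. In no member were the 4 TKO clones all above or all below the 4 Ctrl clones, while 8.33% of all records were separated in that way.

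The change was then fitted within each series, with the spread between clones estimated from all 8 libraries. In the thirties clones (TKO 35 and 37 against Ctrl 33 and 34), 10 members were lower and 1 was higher. In the forties clones (TKO 47 and 48 against Ctrl 41 and 43), 0 were lower and 0 were higher in edgeR's test, as in limma-voom. DESeq2 called Stat2 higher and Ddx58 lower there, among 1099 of all 16235 records that it called (470 higher and 629 lower). With no adjustment, p in edgeR was under 0.05 in the forties clones for 4 members that were higher and 3 that were lower, and for 3215 of all 16235 records. Of all records, 11.9% passed in the thirties clones (4.83% higher and 7.05% lower) and 1.98% in the forties clones (0.813% higher and 1.17% lower). The median log2 change over the 32 members was -0.53 in the thirties clones and 0.24 in the forties clones, while the medians over all records were -0.01 and 0.01.

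The number of calls in the thirties clones needed both TKO clones. Without TKO 35 the number of lower members was 1 (Irgm1), and without TKO 37 it was 2 (Irgm1 and Ddx58), where the remaining TKO clone was assumed to vary like the others; over all records these fits, which have fewer samples, called 27 and 81 records, in place of 1928. The log2 changes of the 10 members stayed below 0 in all alternatives run, for example from -1.85 to -1.39 for Ifit2, from -1.429 to -1.001 for B2m and from -1.46 to -0.60 for Ifi35, the member that came nearest to 0. With every library thinned to the total of the smallest, 5 of the 10 were called (Irgm1, Ifi35, Gbp2, Ddx58 and B2m).

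**Figure D2:**
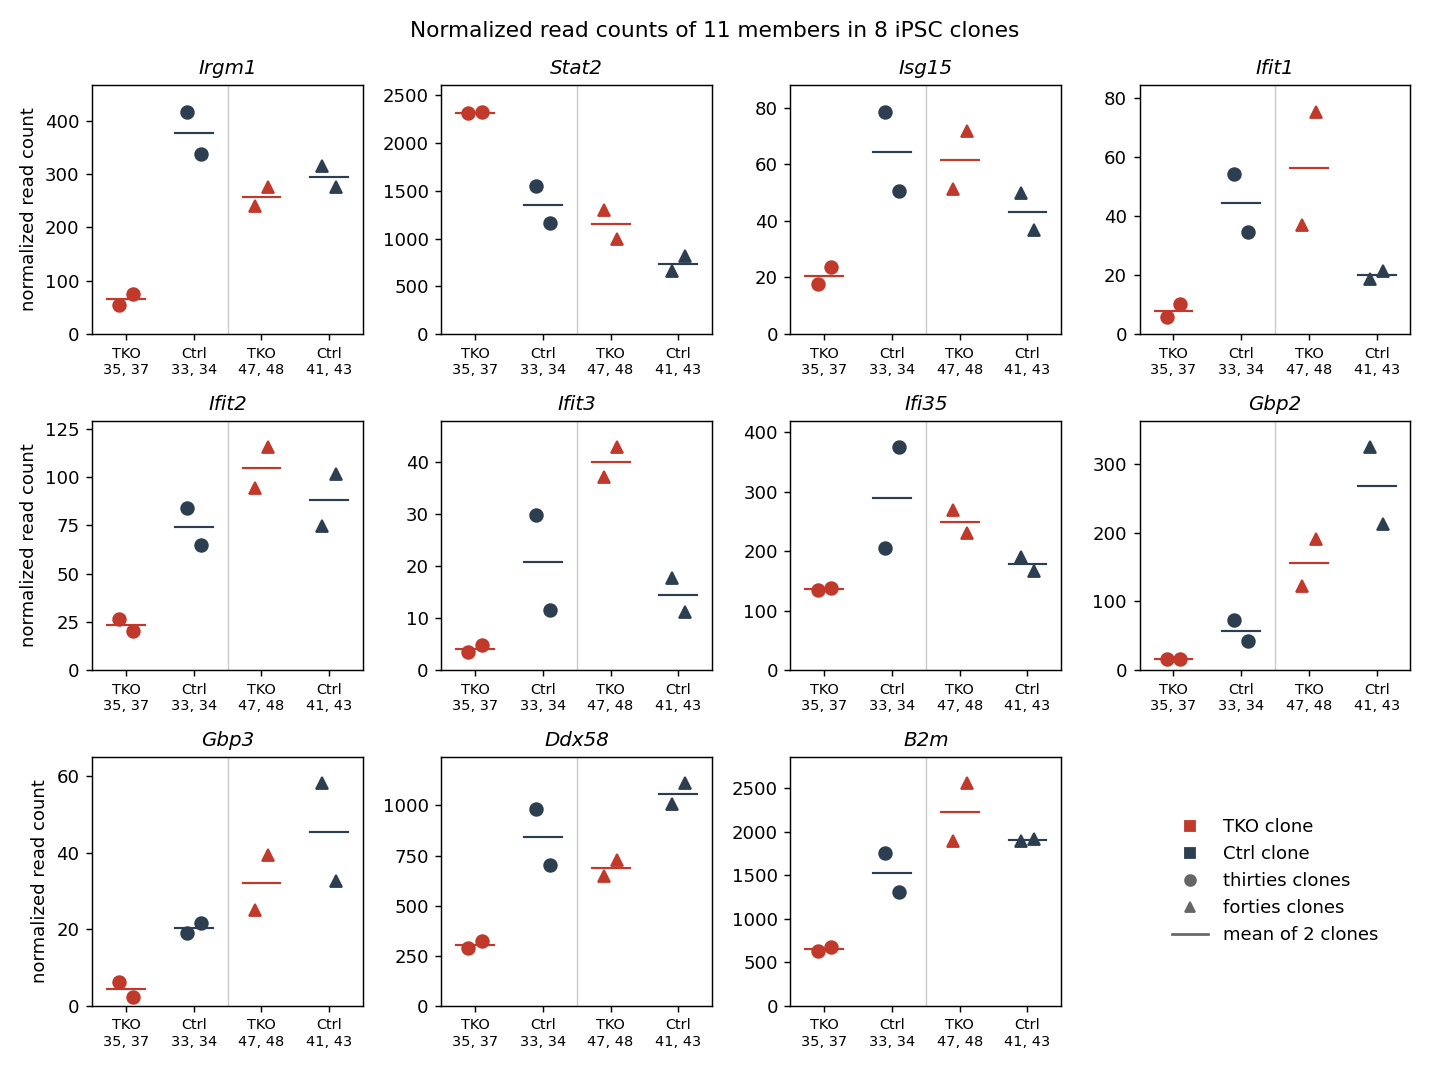
Normalized read counts of the 11 members that passed the test in any comparison, by clone, with TKO clones left of Ctrl clones in each series (points: clones; lines: mean of 2 clones). In 10 of the 11 panels the TKO clones 35 and 37 lie below the other 6 clones, and for Stat2 they lie above them.

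Among the Irg family GTPases, which act against intracellular pathogens and are induced mainly by interferon gamma, Irgm1 fell in the thirties clones. Irgm1 (NM_008326; chr11:48675470-48685185 in mm9, minus strand) had 55.5 and 74.8 normalized reads in TKO 35 and 37 and 239 and 275 in TKO 47 and 48, against 417 and 338 in Ctrl 33 and 34 and 315 and 275 in Ctrl 41 and 43. The TKO clones of the thirties series stood far below all other clones, and the forties clones of both genotypes lay close together. Fitted changes (log2) were -2.52 (standard error 0.22, adjusted p = 0.00112, edgeR) in the thirties and -0.20 (standard error 0.20, adjusted p = 0.636) in the forties clones, a difference of -2.33 (standard error 0.30, adjusted p = 0.0197). The thirties call held under each of the alternatives tried. With the series as a term the value was -1.32 (standard error 0.42, adjusted p = 0.0903), which passed in DESeq2 (adjusted p = 0.00725), without a filter (0.0435) and without TKO 48 (0.0463). Without TKO 35, TKO 37, Ctrl 41 or Ctrl 43 the difference between the series did not pass (highest adjusted p = 0.179).

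Igtp, another Irg GTPase, went the other way in both series without passing the test. It had 101, 131, 101 and 76.1 normalized reads in TKO 35, 37, 47 and 48, against 65.0, 87.8, 63.4 and 58.1 in Ctrl 33, 34, 41 and 43. The TKO clones lay above the Ctrl clones of their own series, and only TKO 48 fell below Ctrl 34. It had log2 changes of 0.57 in the thirties (adjusted p = 0.183, edgeR) and 0.54 in the forties clones (adjusted p = 0.293). Irgm2 had thirties and forties changes of -0.73 and 0.42, neither past the threshold.

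Stat2, the partner of IRF9 in the ISRE-binding complex, was the only member that was higher in TKO clones in any of these comparisons. Stat2 (NM_019963; chr10:127707629-127729905 in mm9, plus strand) had 2311 and 2330.1 normalized reads in TKO 35 and 37 and 1301 and 998 in TKO 47 and 48, against 1547 and 1164 in Ctrl 33 and 34 and 660.5 and 818 in Ctrl 41 and 43. TKO clones were above the Ctrl clones within each series, but the thirties clones were higher than the forties clones in both genotypes, so that the genotypes overlapped over all 8. With the series as a term in the model the log2 change was 0.71 (standard error 0.13, adjusted p = 0.0196, edgeR), with 0.78 in the thirties (standard error 0.18, adjusted p = 0.0248) and 0.64 in the forties clones (standard error 0.18, adjusted p = 0.0978). Leaving out TKO 35, TKO 37, TKO 47 or Ctrl 41 raised the adjusted p of the model with a series term to at most 0.0811, and the thirties call was lost without TKO 35, TKO 37 or Ctrl 34 (at most 0.159). In the forties clones DESeq2 called Stat2 higher (adjusted p = 0.0224).

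The other transcription factors did not pass in any comparison. Irf3, which carries the signal of the RNA sensors, had 529, 539, 739 and 858 normalized reads in TKO 35, 37, 47 and 48, against 604, 406, 639.7 and 585 in Ctrl 33, 34, 41 and 43. The genotypes overlapped in the thirties clones, and TKO was higher in the forties clones (log2 change 0.38, adjusted p = 0.286, edgeR). Irf7, itself an interferon target, was between 20.8 and 40.2 reads in TKO and between 13.5 and 43.3 in Ctrl clones. Irf9 was at 1 to 9 reads per library.

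The effectors, proteins that block viral RNA, translation or budding, held most of the lower genes. In the thirties clones 7 of 13 were lower (7.05% of all records were), and in the forties clones 0 of 13 passed (1.98% of all records did). The medians were -1.59 and 0.40 on the log2 scale. In the forties clones p in edgeR was under 0.05, unadjusted, for 3 of the 13 that were higher and 1 that was lower, and for 3215 of all 16235 records. Isg15 and the 3 Ifit genes, textbook targets of type I interferon, had changes below 0 in the thirties and above 0 in the forties clones.

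Isg15 (NM_015783; chr4:155573533-155574927 in mm9, minus strand) encodes a ubiquitin-like modifier. It had 17.5 and 23.6 normalized reads in TKO 35 and 37 and 51.1 and 71.8 in TKO 47 and 48, against 78.6 and 50.4 in Ctrl 33 and 34 and 49.8 and 36.7 in Ctrl 41 and 43. TKO clones were below Ctrl in the thirties and above Ctrl in the forties series. Fitted log2 changes were -1.59 (standard error 0.35, adjusted p = 0.0226, edgeR) and 0.51 (adjusted p = 0.414), and the difference between the series did not pass (-2.10, adjusted p = 0.0659; DESeq2, adjusted p = 0.019).

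The Ifit genes encode proteins that bind viral RNA ends and lie side by side on chromosome 19. Ifit1 (NM_008331; chr19:34715361-34724499 in mm9, plus strand) had 5.66 and 10.1 normalized reads in TKO 35 and 37 and 37.1 and 75.2 in TKO 47 and 48, against 54.2 and 34.6 in Ctrl 33 and 34 and 18.7 and 21.4 in Ctrl 41 and 43. The lowest and the highest value were both in TKO clones. Its log2 change was -2.40 (standard error 0.49, adjusted p = 0.0178, edgeR) in the thirties and 1.49 (standard error 0.43, adjusted p = 0.102) in the forties clones, and the difference of -3.89 (standard error 0.65, adjusted p = 0.0349) passed.

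Ifit3 (NM_010501; chr19:34658021-34663221 in mm9, plus strand) was also lowest in TKO 35 and 37. It had 3.40 and 4.83 normalized reads in TKO 35 and 37 and 37.1 and 42.8 in TKO 47 and 48, against 29.8 and 11.5 in Ctrl 33 and 34 and 17.7 and 11.2 in Ctrl 41 and 43. Here TKO 47 and 48 were the highest clones, whereas for Ifit1 Ctrl 33 lay between them. Fitted changes were -2.14 (standard error 0.56, adjusted p = 0.0392, edgeR) in the thirties and 1.46 (standard error 0.41, adjusted p = 0.096), with a difference of -3.60 (standard error 0.69, adjusted p = 0.0471). Its thirties counts are small, from 6 to 10 reads in TKO 35 and TKO 37, against 11 and 8 in Ctrl 33 and 34.

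Ifit2 (NM_008332; chr19:34625184-34650909 in mm9, plus strand) had 26.6 and 20.3 normalized reads in TKO 35 and 37 and 94.2 and 115 in TKO 47 and 48, against 84.0 and 64.8 in Ctrl 33 and 34 and 74.8 and 102 in Ctrl 41 and 43. It was low in TKO 35 and 37 alone, and the forties genotypes overlapped. On the log2 scale the change was -1.64 (standard error 0.30, adjusted p = 0.0128, edgeR) in the thirties and 0.25 (adjusted p = 0.642) in the forties clones. Ifit1, Ifit2 and Isg15 lost the thirties call without TKO 35, without TKO 37 and after thinning (adjusted p at most 0.123 for Ifit2, 0.152 for Ifit1 and 0.181 for Isg15). Ifit3 lost it in these and also without Ctrl 33, Ctrl 41 or Ctrl 43 and with the series fitted alone (at most 0.207). The difference between the series was lost for Ifit1 and Ifit3 without TKO 35, TKO 37, TKO 48, Ctrl 41 or Ctrl 43 (at most 0.238), and for Ifit1 also after thinning.

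Ifi35 (NM_027320; chr11:101309721-101320012 in mm9, plus strand), a leucine zipper protein induced by interferon, had 134 and 137 normalized reads in TKO 35 and 37 and 269 and 230.0 in TKO 47 and 48, against 206 and 374 in Ctrl 33 and 34 and 190.1 and 167 in Ctrl 41 and 43. TKO clones were below Ctrl in the thirties and above Ctrl in the forties series. It changed by -1.12 on the log2 scale in the thirties clones (standard error 0.26, adjusted p = 0.027, edgeR), and the forties value was 0.48 (adjusted p = 0.335). The thirties call was lost without TKO 35, TKO 37, Ctrl 34, Ctrl 41 or Ctrl 43 (at most 0.189) and with the series fitted alone.

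The guanylate-binding proteins Gbp2 and Gbp3, GTPases that attack the membranes around pathogens, were lower in TKO clones of the thirties series and had values below 0 in both series. Gbp2 (NM_010260; chr3:142283566-142300972 in mm9, plus strand) had 16.4 and 16.4 normalized reads in TKO 35 and 37 and 122 and 191 in TKO 47 and 48, against 73.1 and 41.8 in Ctrl 33 and 34 and 324 and 212 in Ctrl 41 and 43. TKO was below Ctrl within each series, and the forties clones were above the thirties clones in both genotypes. Its log2 change was -1.74 (standard error 0.41, adjusted p = 0.0277, edgeR) in the thirties and -0.77 (standard error 0.30, adjusted p = 0.201) in the forties clones, and -1.16 (standard error 0.29, adjusted p = 0.0477) with the series as a term. Of the fits with a series term that leave out a clone, Gbp2 passed only in the one without TKO 48 (adjusted p at most 0.153 in the others), and it did not pass in limma-voom or after thinning.

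Gbp3 (NM_018734; chr3:142223016-142236173 in mm9, plus strand) had 6.22 and 2.41 normalized reads in TKO 35 and 37 and 25.04 and 39.3 in TKO 47 and 48, against 19.0 and 21.6 in Ctrl 33 and 34 and 58.2 and 32.6 in Ctrl 41 and 43. Its TKO clones were lower in the thirties series and overlapped with Ctrl in the forties series. It changed by -2.26 on the log2 scale in the thirties clones (standard error 0.60, adjusted p = 0.0411, edgeR), and the forties value was -0.48 (adjusted p = 0.548). The thirties value rests on few reads before scaling, 11 and 5 in TKO 35 and 37, against 7 and 15 in Ctrl 33 and 34. The thirties calls were lost without TKO 35 or TKO 37 for both genes, without Ctrl 33 for Gbp2 (adjusted p at most 0.164), and without Ctrl 34, Ctrl 41 or Ctrl 43, after thinning and with the series fitted alone for Gbp3 (at most 0.346).

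Bst2 and Oas1a were the most abundant other effectors. Bst2 had 1479, 1485, 1458 and 734 normalized reads in TKO 35, 37, 47 and 48, against 1178, 593, 974 and 769 in Ctrl 33, 34, 41 and 43. The first 3 TKO clones were above every Ctrl clone, and TKO 48 was below 3 of them. Its log2 change of 0.54 with the series as a term did not pass (standard error 0.25, adjusted p = 0.208, edgeR), except without TKO 48 (0.75, adjusted p = 0.047). Oas1a, which makes the messenger that activates RNase L, had 199.8, 197, 329.6 and 282 normalized reads in TKO 35, 37, 47 and 48, against 189.6, 353, 191 and 207 in Ctrl 33, 34, 41 and 43. Ctrl 34 was the highest clone, and TKO was above Ctrl in the forties series (0.62, adjusted p = 0.217).

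The 4 remaining effectors did not pass. Usp18, a protease that removes ISG15 and dampens the interferon receptor, had a thirties change of -2.50 (standard error 0.72, adjusted p = 0.055, edgeR) and a forties change of 0.32. Its values were 5.09 and 4.34 normalized reads in TKO 35 and 37 and 20.03 and 57.3 in TKO 47 and 48, against 35.2 and 21.6 in Ctrl 33 and 34 and 44.7 and 18.3 in Ctrl 41 and 43. Like the Ifit genes it was lowest in TKO 35 and 37. Rsad2 (viperin), Oasl2 and Samhd1 had thirties changes of -0.75, 0.40 and 0.54.

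Of the sensors, Ddx58, which encodes RIG-I, was lower. Ddx58 (NM_172689; chr4:40150806-40186861 in mm9, minus strand) had 287 and 323 normalized reads in TKO 35 and 37 and 650.1 and 729 in TKO 47 and 48, against 983 and 703 in Ctrl 33 and 34 and 1005 and 1111 in Ctrl 41 and 43. TKO was below Ctrl within each series, and over all clones only TKO 48 reached the level of Ctrl 34. Its log2 change was -1.03 with the series as a term (standard error 0.19, adjusted p = 0.0193, edgeR), -1.46 in the thirties (standard error 0.18, adjusted p = 0.00313) and -0.62 in the forties clones (standard error 0.17, adjusted p = 0.0943), and the difference between the series did not pass (adjusted p = 0.118). DESeq2 called the forties change (adjusted p = 0.0203). The thirties call was lost without TKO 35 (adjusted p = 0.0689), and that with a series term without TKO 35, TKO 37, TKO 47 or Ctrl 43 (at most 0.087). Permuting the genotype over all 8 clones (exact, two-sided) gave p = 0.0571, where the design can reach 0.0286.

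The adaptor and the RNA-activated kinase of the pathway varied little. Mavs had 1879, 1824, 1317 and 1359 normalized reads in TKO 35, 37, 47 and 48, against 1436, 1762, 1207 and 1371 in Ctrl 33, 34, 41 and 43. Eif2ak2 (PKR, which halts translation on double-stranded RNA) had 740.1, 824, 929.6 and 671, against 894, 968, 1041 and 1086. Eif2ak2 was below Ctrl within each series, by -0.25 and -0.41 on the log2 scale, and neither gene passed (lowest adjusted p 0.119 for Eif2ak2 and 0.301 for Mavs, edgeR). Tlr3, the endosomal sensor, and Adar, which edits double-stranded RNA, had thirties changes of -0.51 and -0.54 and forties changes of 0.51 and 0.12.

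In antigen processing B2m was lower in the thirties clones. B2m (NM_009735; chr2:121973422-121978819 in mm9, plus strand) had 632 and 674 normalized reads in TKO 35 and 37 and 1891 and 2558 in TKO 47 and 48, against 1755 and 1308 in Ctrl 33 and 34 and 1890.1 and 1916 in Ctrl 41 and 43. TKO 35 and 37 were apart from the other 6 clones, which lay between 1308 and 2558. Its log2 change was -1.22 (standard error 0.18, adjusted p = 0.00581, edgeR) in the thirties and 0.23 (adjusted p = 0.501) in the forties clones, and the difference of -1.45 (standard error 0.24, adjusted p = 0.0359) passed. The thirties call was lost without TKO 35 or TKO 37 (at most 0.0956), and the difference also without TKO 48, Ctrl 41 or Ctrl 43 (at most 0.235).

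The immunoproteasome genes Psmb8 and Psmb9 and the peptide transporter gene Tap1 did not pass in any comparison. Psmb8 had 7.36 and 5.79 normalized reads in TKO 35 and 37 and 75.1 and 63.3 in TKO 47 and 48, against 13.5 and 15.8 in Ctrl 33 and 34 and 107 and 65.2 in Ctrl 41 and 43. Most of its variation lay between the series, and its thirties change of -1.18 did not pass (adjusted p = 0.134, edgeR). Psmb9 and Tap1, neighbours that overlap on opposite strands, had thirties changes of 0.84 and 1.30 (adjusted p = 0.42 and 0.109). The counting is not stated to use strand, so reads of this pair cannot be told apart where they overlap.

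The receptors varied little. Ifnar1 had 1607, 1675, 1793 and 1868 normalized reads in TKO 35, 37, 47 and 48, against 1726, 1984, 1879.7 and 1945 in Ctrl 33, 34, 41 and 43. Ifngr1, of the interferon gamma receptor, had 210.5, 226, 247 and 239, against 171, 236, 214 and 258. Over the 3 receptors the log2 changes lay between -0.18 and 0.08 in the thirties and between -0.07 and 0.05 in the forties clones, and no adjusted p was under 0.291.

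**Figure D3:**
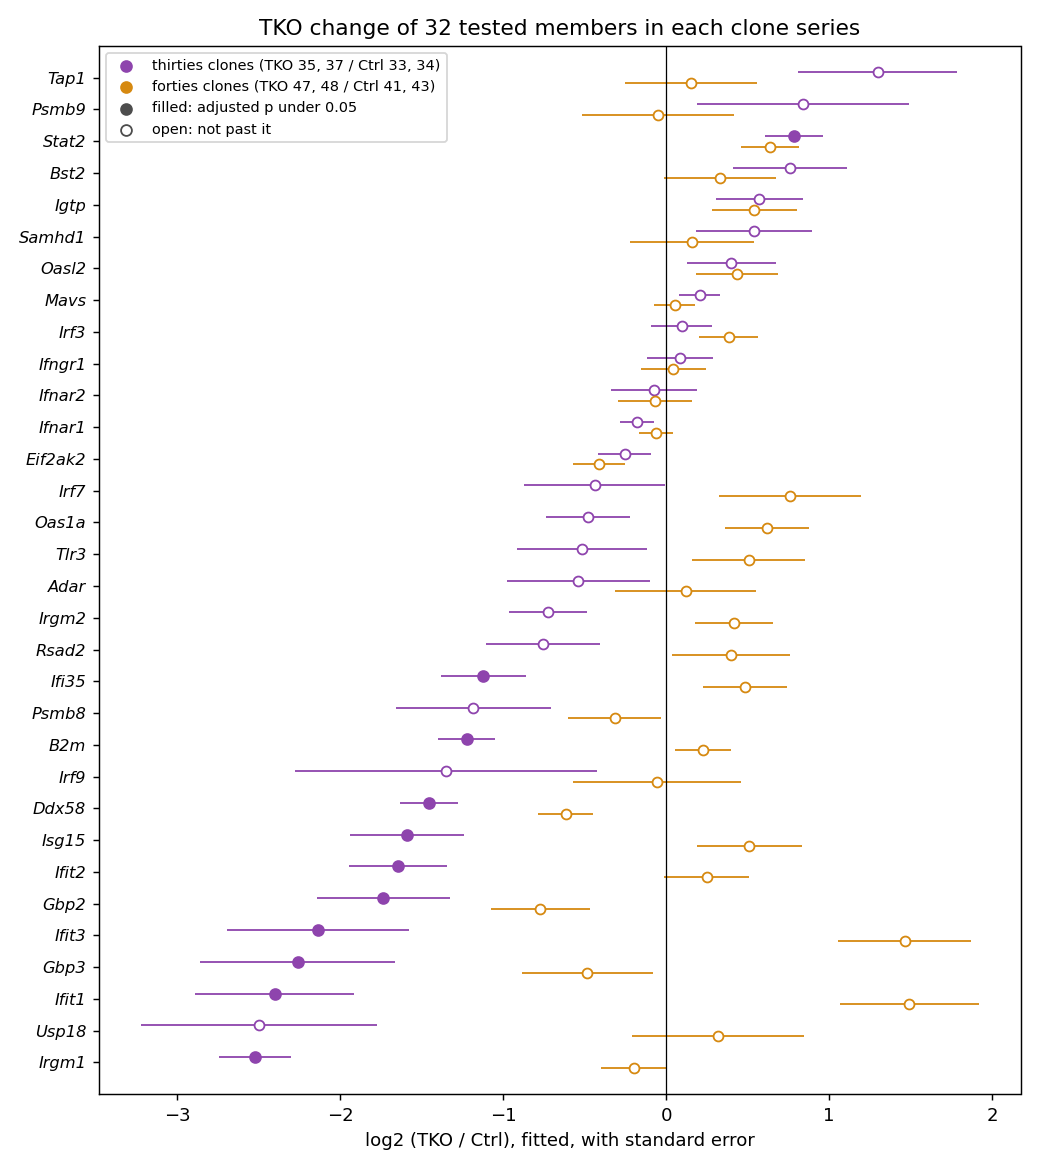
Log2 change (TKO over Ctrl, fitted, with standard error) of the 32 tested members in the thirties and the forties clones; filled points have an adjusted p under 0.05. Values run from -2.52 (Irgm1) to 1.30 (Tap1) in the thirties clones and from -0.77 (Gbp2) to 1.49 (Ifit1) in the forties clones, where no point is filled.

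Set against each other, 13 members had a change below 0 in the thirties and above 0 in the forties clones (21.6% of all records did), among them Isg15, the 3 Ifit genes, Usp18, Ifi35 and B2m. The changes of 9 members were above 0 in both, those of 9 were below 0 in both, and Psmb9 alone was above 0 in the thirties and below 0 in the forties clones. The test of the difference between the series called 4 of the 32 members (Irgm1, Ifit1, Ifit3 and B2m), all with the lower value in the thirties clones, against 1.30% of all records in either direction and 1.03% with a lower value. TKO and Ctrl clones did not overlap for 26 of 32 members in the thirties clones (19 below and 7 above; 58.5% of all records) and for 16 of 32 in the forties clones (4 below and 12 above; 53.6% of all records).

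With the series as a term, the comparison closest to a common change across the series, 3 of 32 members passed in edgeR. Stat2 was higher and Ddx58 and Gbp2 were lower, against 5.70% of all records (2.60% higher and 3.10% lower). In DESeq2 3 members were lower, and so were 1150 of all 16235 records. The median log2 change over the members was -0.14.

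Of the 10 members that were lower in the thirties clones, 8 had an ISRE match in the promoter window (all but Ifit2 and Ifi35), against 7 of the 21 other tested members with a promoter. For TTCNNNGAA, the gamma-activated site of interferon gamma targets, on either strand, the numbers were 2 of 10 and 10 of 21, and 9.55% of all genes in the promoter table held a match. Since the 10 genes were chosen by their change, these counts are a description.

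Most fibroblast markers were lower in the same TKO clones. The test of the difference between the series called 4 of 8 (Col1a2, Thy1, Twist2 and Postn), all with the lower value in the thirties clones. It called 1.30% of all records. Of 8 fibroblast markers, which feeder cells express, 6 were lower in the TKO clones of the thirties series (Col1a1, Col1a2, Col3a1, Thy1, Twist2 and Postn), and their summed normalized count was 21885 and 20030.0 in TKO 35 and 37, against 58485 and 35779 in Ctrl 33 and 34. In the forties series the sum was 34903 and 25687 in TKO 47 and 48, against 20553 and 20681 in Ctrl 41 and 43. The fibroblast sum thus lay below Ctrl in the thirties and above Ctrl in the forties series, as for 13 members. The 10 members that were lower in the thirties clones summed to 1184 and 1286 in TKO 35 and 37, against 3700.2 and 2948 in Ctrl 33 and 34, and to 3417 and 4328 in TKO 47 and 48, against 3943 and 3885 in Ctrl 41 and 43. Ctrl 41 and 43 had fibroblast sums like those of TKO 35 and 37, while their sums of the 10 members were higher. Col1a1 and Col1a2 made up most of the fibroblast sums, and single markers differed. Col1a1 was lower in Ctrl 41 and 43 (5546 and 5079 normalized reads) than in TKO 35 and 37 (9277 and 7965). Col1a2, Col3a1, Thy1, Twist2 and Postn were lower in TKO 35 and 37 than in every other clone, as the 10 members were. In the forties series the sums of the 10 members overlapped between the genotypes.

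The sum of the leukocyte markers was higher in the forties than in the thirties clones of both genotypes. Of the 8 genes listed, 7 were found in the table, the pan-leukocyte gene Ptprc had 0 reads in nearly all clones, and the sum was 143 and 153 in TKO 35 and 37, against 249 and 209 in Ctrl 33 and 34, and 2037 and 1281 in TKO 47 and 48, against 877 and 948 in Ctrl 41 and 43. Lyz2 made up most of it. Cd52 did not separate the series, with 20.9, 13.5, 18.0 and 8.55 normalized reads in TKO 35, 37, 47 and 48, against 5.42, 10.1, 11.4 and 6.11 in Ctrl 33, 34, 41 and 43. Of 6 tested markers, 4 had a thirties change below 0 and 2 above 0 (Tyrobp 1.06 and Cd52 1.02, log2 scale), and 0 passed there. Cd14 was higher in the TKO clones of the forties series (log2 change 1.26, adjusted p = 0.0401, edgeR). In bulk RNA, fewer cells of a type and less RNA per cell cannot be told apart, and the part of fibroblast or leukocyte RNA, or of the deeper TKO libraries of the thirties series, in the changes above was not tested.

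**Figure D4:**
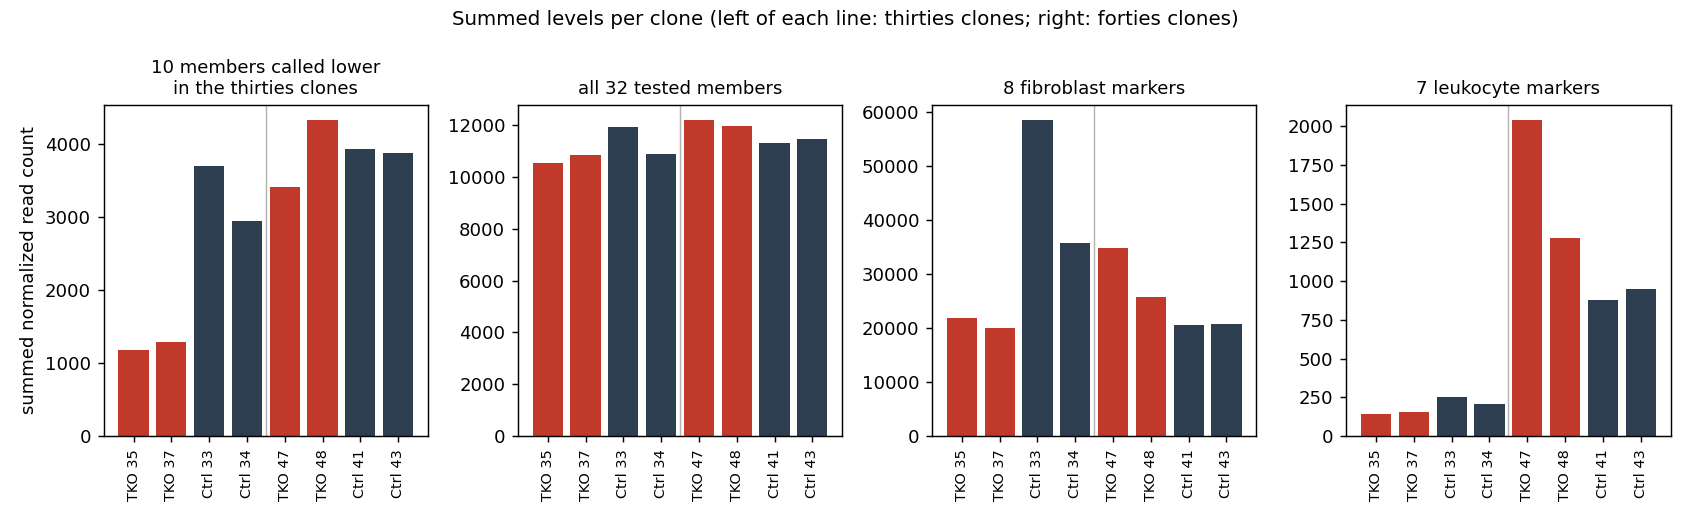
Summed normalized read counts per clone of the 10 members that were lower in the thirties clones, of all 32 tested members, of 8 fibroblast markers and of 7 leukocyte markers; TKO clones stand left of Ctrl clones in each series. The 10 members sum to 1184 and 1286 in TKO 35 and 37 and to between 2948 and 4328 in the other clones.

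Interferon genes themselves gave no signal that could be compared. Ifnb1, Ifna4 and Ifne had 0 reads in every library, and Ifng, Ifnl2 and Ifnl3 had at most a few. These 6 belong to a list of 96 further genes of the pathway, of which 95 were found in the table and 73 were tested. Over all clones 0 of the 73 passed in edgeR or limma-voom and 2 passed in DESeq2, both higher. DESeq2 called 513 of all 16235 records there, 253 of them higher. With no adjustment, p in edgeR was under 0.05 for 7 of the 73 that were higher and 1 that was lower, and for 2405 of all 16235 records. In the thirties clones 7 were higher and 13 lower (27.4% of the list, against 11.9% of all records), in the forties clones 1 was higher (1.37%, against 1.98%), and the medians were -0.29 and 0.12 on the log2 scale. With the series as a term Tyk2, Irf8, Rnaseh2a and Ciita were higher and Dhx9 was lower (6.85%, against 5.70%).

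Ciita, the transactivator of MHC class II genes, was the clearest of these. It had 52.6, 45.4, 29.1 and 17.1 normalized reads in TKO 35, 37, 47 and 48, against 8.13, 10.1, 4.15 and 5.09 in Ctrl 33, 34, 41 and 43. Every TKO clone was above every Ctrl clone, and 8.33% of all records were separated by genotype in either direction. For such a separation the exact permutation test gives the smallest p that this design allows (0.0286, two-sided). The Ctrl values rest on few reads, with 3, 7, 4 and 5 before scaling in Ctrl 33, 34, 41 and 43. Its log2 change was 2.37 in the thirties (adjusted p = 0.0104, edgeR), 2.28 in the forties clones (adjusted p = 0.0428) and 2.33 with the series as a term (adjusted p = 0.00545), and over all clones it did not pass (2.46, adjusted p = 0.0726).

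The 13 further genes that were lower in the thirties clones included interferon targets with changes of the size of the Ifit genes. Mnda (-2.82), Ifi27 (-2.49), Ifi44 (-2.40), Herc6 (-2.27), Ifi204 (-1.93), a sensor of DNA, and Erap1 (-1.36), which trims peptides for MHC class I, had adjusted p-values from 0.00989 to 0.0317 in edgeR. The values of Mnda and Ifi27 rest on few reads. Before scaling, Mnda had 4 and 3 reads in TKO 35 and 37, against 8 and 6 in Ctrl 33 and 34. Ifi27, which has 5 RefSeq records, had 2 and 6 reads, against 4 and 9. Ifi44 had 18.1 and 13.5 normalized reads in TKO 35 and 37 and 4.01 and 16.2 in TKO 47 and 48, against 94.8 and 74.9 in Ctrl 33 and 34 and 3.12 and 2.04 in Ctrl 41 and 43. Here Ctrl 33 and 34 were the high clones, unlike for the Ifit genes, for which TKO 35 and 37 were the low ones. Irf8, a transcription factor of myeloid cells, was higher in the thirties clones (1.57, adjusted p = 0.0224). Across the series the test of the difference called Ifi44, Ifi204, Tmem173 (STING) and Ikbke, all with the lower value in the thirties clones (5.48% of the list, against 1.30% of all records).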

How the data were processed

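Total RNA of 8 iPSC clones was made into Illumina TruSeq libraries and sequenced with 50 single-end cycles. The authors mapped the reads with BWA 0.7.5a to mm9 RefSeq transcripts and deposited whole-number counts per record; the treatment of reads that match several records is not given in the sources used here. Symbols were found for 26322 of 27052 records in a RefSeq table (GRCm38.p6, names and promoters only), and gene coordinates came from GENCODE vM1 (mm9). As in the study, records needed 5 reads in at least 4 libraries and were scaled by median-ratio size factors. Counts were fitted with edgeR 4.0.16 (quasi-likelihood, R 4.3.3), with Benjamini-Hochberg adjustment over all 16235 records and a threshold of 0.05, in 5 comparisons: genotype alone, genotype with the series as a term, and 4 groups giving the thirties, the forties and their difference. Permutation tests used log2(normalized count + 0.5). DESeq2 1.42.0, limma-voom 3.58.1, TMM, other filters, counts summed per symbol, thinning, single clones left out and each series alone were the alternatives. The fits were tested on simulated data. Floors cover counting error only.

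The members, the role groups and the other lists were chosen with earlier results of these data known. Values in every clone are given for members that passed in any comparison and for the 2 with the highest mean count in each role group, with Usp18 added after its values were seen; of the 96 further genes, the 8 called ones with the largest change are named, and Tyk2, Rnaseh2a, Dhx9, Tmem173 and Ikbke were added to account for small counts. Endothelial markers (5 genes) were summed too and ranged from 515 to 650 in TKO and from 412 to 717 in Ctrl clones.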

Additional observations from a re-analysis of the deposited data

Results flagged for a closer look

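In 3 of 64 groups of 4 clones (32 members, 2 genotypes), 1 clone stood apart from the others by Dixon's criterion, or 4.69%, where chance alone marks about 1 in 20. Bst2 had 734 normalized reads in TKO 48, against 1458 to 1485 in the other TKO clones. Oas1a had 353 in Ctrl 34, against 189.6 to 207 in the other Ctrl clones. Samhd1 had 27.4 in Ctrl 34, against 13.5 to 15.6 in the other Ctrl clones.

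For 4 members the change between TKO and Ctrl clones differed between the series in edgeR's test of the difference (thirties minus forties, log2 scale): -2.33 for Irgm1, -3.89 for Ifit1, -3.60 for Ifit3 and -1.45 for B2m. What separates the series, and the part of fibroblast and leukocyte RNA in these differences, was not tested.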

How the results depend on the processing

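Over all clones the numbers of members higher and lower were 0 under every alternative run. No value that had passed changed its sign; of 1525 recomputed single values, 48 signs changed, all of values that had not passed, 75 values lost and 34 gained the threshold. With the series as a term the number of lower members (2) was 1 in limma-voom and 1 after thinning, and 3 in DESeq2 and without a filter. The thirties number of lower members (10) was 5 after thinning. The forties numbers (0 and 0) were 2 higher without a filter, and 1 higher and 1 lower in DESeq2. Over all records the forties number of 322 was 732 of 22149 without a filter and 1099 of 16235 in DESeq2. The number for which the difference passed (4) was 7 without a filter and 8 in DESeq2. Over all records it was 671 of 22149 without a filter and 914 of 16235 in DESeq2, in place of 211. Leaving out 1 clone at a time gave 0 to 2 higher and 0 to 3 lower with the series as a term, 0 to 2 higher and 1 to 11 lower in the thirties clones, 0 to 3 higher and 0 to 1 lower in the forties clones, and 0 to 7 for the difference. The lowest thirties numbers came without TKO 35 (1) and without TKO 37 (2). In the comparisons by series, each fit without a clone left 1 clone in a group of genotype and series. For the difference, far fewer of all records passed without TKO 35, TKO 37, TKO 48, Ctrl 41 or Ctrl 43. The loss of members in these fits is therefore not particular to them. With the series as a term 0 were lower without TKO 35, TKO 37, TKO 47 or Ctrl 43, where fewer of all records passed too. The forties counts above 0 came without Ctrl 33 or Ctrl 34, which enter only the estimate of the spread. Far more of all records passed in these fits too, so the gain is not particular to the members. The cause of these shifts was not tested. No paired analysis was possible because the genotypes share no clone numbers. Ctrl 33, the shallowest library, reached a floor of 3 reads at 8.13 normalized reads, so changes of genes near that level were not detectable there.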
